A study of Mus musculus with 4 samples.

Results

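The miRNAs described here are 78 late-annotated mouse microRNAs (miRNAs) that were detected in the exosome fraction of 3T3-L1 cells on every day measured. miRNA names are numbered in the order in which the sequences entered the public catalogue. The 78 were selected on 2 criteria: a name from miR-1000 to miR-6879 or above miR-7120, leaving out miR-1188, miR-1193, miR-1197, miR-3070 and miR-3072, and a detection flag on all 4 arrays. They are 78 of the 641 miRNAs with such names on the array, of 283 miRNAs detected on all 4 arrays, and of 1881 miRNAs on the array in all. They were thus chosen by the signals of all 4 days, from which the flag is set, so detection on every day is how these miRNAs were chosen and is not a result.

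3T3-L1 is a line of mouse fibroblast-like cells that becomes fat-storing adipocytes after a hormonal stimulus. Day 0 (D0) was the growth medium before the stimulus, and D4, D12 and D16 were counted from the change to differentiation medium with isobutylmethylxanthine, dexamethasone and insulin, which was followed by medium with insulin alone. The fetal bovine serum in the media of all 4 groups had been depleted of exosomes, and the vesicles were pelleted by ultracentrifugation. The RNA of independent experiments, 2 by the methods and 3 by the sample labels, was mixed by equal protein amounts into 1 pool per day, and each pool was read on 1 single-colour array, so there was no replicate and no test between days.

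A miRNA is cut from a hairpin precursor by the enzymes Drosha and Dicer, and 1 of the hairpin's strands, called the 5p or the 3p arm, is loaded into an Argonaute protein. The loaded strand finds messenger RNAs mainly through its seed, the bases 2 to 8, and lowers their translation and stability. Cells release miRNAs in vesicles and bound to proteins, and both can be present in an ultracentrifuged pellet. For most of the miRNAs described here little is established about function in fat cells, and many late names were assigned from sequencing alone.

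A mature sequence was found in the RefSeq table (build GRCm38.p6) for 64 of the 78. Their 64 seeds were all different, and no seed was shared with another miRNA that was detected every day and had a sequence. The brightest of them, which carry most of the signal described below, are shown 5′ to 3′ with the seed in capitals.
miR-3963: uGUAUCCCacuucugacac
miR-6366: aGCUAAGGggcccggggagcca
miR-6769b-5p: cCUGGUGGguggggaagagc
miR-5100: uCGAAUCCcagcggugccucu
miR-1224-5p: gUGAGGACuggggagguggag
miR-8110: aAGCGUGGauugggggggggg
miR-5126: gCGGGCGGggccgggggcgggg
miR-2137: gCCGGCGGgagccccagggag
In the table miR-3963 lies at chr3:151023839-151023857 on the minus strand, outside the span of any other gene, and miR-1224-5p at chr16:20604452-20604472 on the plus strand, within Vwa5b2. Of the 64, 53 lay within the span of another RefSeq gene on either strand, 48 of them within a protein-coding gene. miR-1906 was listed at 2 positions, 1 of them within the long noncoding gene Meg3 on chromosome 12.

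The members whose ratio between D0 and D12 was farthest from that of most others, and the arms of hairpins with more than 1 detected product, are shown in the same way.
miR-7686-5p: cCUUCCACuggaccuggggcugggc
miR-5103: uCAUCCGGgauccccugagg
miR-7648-3p: aGGGCUGGgcccgggacgcgg
miR-5622-3p: cUUAGCUGgguagugguggugc
miR-5624-5p: uAUUGUAAacucugccuu
miR-3060-3p: cCAUAGCAcagaagcacuccca
miR-7681-5p: aUCCUGUCcuugcccucucu
miR-3098-5p: uCCUAACAgcaggaguaggagc
miR-3098-3p: uUCUGCUGccugccuuuagga
miR-3102-5p: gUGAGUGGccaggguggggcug
miR-3102-3p: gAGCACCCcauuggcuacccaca
miR-3102-3p.2-3p: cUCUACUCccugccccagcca
miR-1897-5p, miR-3960, miR-5127, miR-6769b-3p, miR-7668-5p and miR-5107-5p, which also appear below, are given by name.

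The values are total gene signals, the deposited intensity summed over the detected probes of a miRNA, and a miRNA was flagged as detected where at least 1 of its probes had a signal above 3 times its error. Summed over miRNAs, the D0 array read 12716, the D4 array 39129, the D12 array 30966 and the D16 array 21873, so unscaled ratios to D0 hold a factor common to the whole array. For D12/D0 this factor was 1.83 by the 2 labelling spike-in RNAs, 2.44 by summed signal and 3.29 by the 75th percentile. The D0 array was also the least even, with a median coefficient of variation between spots of 21.1% against 7.19% to 8.07% on the others, and the left part of that array read 0.682 times the right part over the members' probes. Signals and ratios below are unscaled unless a scaling is named, and each step was also computed under 5 scalings, namely by the 75th and 90th percentile, by quantiles, by spike-in and by share of the array. Brightness also depends on the probe, so a share of signal is not an abundance, and a lower signal cannot tell fewer vesicles from less RNA per vesicle.

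The array holds no messenger RNA, so the cell type was looked at through miRNA markers only. The 4 markers of fat cell differentiation summed to 5.71, 67.2, 85.1 and 58.2 from D0 to D16, with 2, 3, 4 and 4 of them detected. The 3 red blood cell markers summed to 9.40, 468, 2524 and 1649 in the same order, nearly all of it miR-451a, and the 6 markers of other cells and serum to 0, 30.2, 130 and 112, with the muscle miRNAs miR-1a-3p, miR-133a-3p and miR-206-3p not detected on any day. The rise of these markers accompanies every D0 comparison below, and its part in them was not tested.

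Like the array as a whole, most late-annotated miRNAs were either seen every day or not at all, 93.9% of them against 90.2% of all 1881. Of the 641, 524 were not detected on any array, 15 were detected on 1, 17 on 2 and 7 on 3, which left the 78 on all 4. These 78 are 12.2% of the late-annotated miRNAs, against 16.5% of the other 1240 on the array. By day, the number of late-annotated miRNAs detected was 94, 110, 92 and 86 from D0 to D16. Just inside the criterion lay miR-5107-5p, whose best probe read 3.06 times its error on its lowest day, miR-1904 at 3.10 and miR-7658-3p at 3.17. Just outside lay miR-7218-5p, missed at D16 alone at 2.997 times its error, and miR-6392-3p, missed at D0 alone at 2.94 times its error.

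The 78 carried a large part of the signal on every array. Their share of the summed signal was 59.3%, 52.4%, 45.7% and 47.3% from D0 to D16, with technical errors of 1.70, 1.71, 1.64 and 1.70 percentage points. A share does not contain the common factor of an array, and it was highest at D0. It also depends on the signal of the other miRNAs. From D0 to D12 the members' unscaled sum rose from 7545 to 14153, and that of the others rose by more, from 5171 to 16814. The level of a single member was less telling: the median member read 12.7, 27.8, 19.7 and 13.7 from D0 to D16, against 12.1, 30.8, 24.3 and 17.7 for all 283 miRNAs detected every day.

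A few bright members made up most of that share. miR-3963 alone accounted for 15.1%, 17.2%, 17.4% and 18.0% of the signal from D0 to D16 and ranked first on every array. Together with miR-6366, miR-5100, miR-6769b-5p, miR-1224-5p and miR-3960, the other 5 of the 6 members with the highest signal at D12, it gave 41.0%, 41.1%, 37.5% and 38.7%. The other 72 members gave 18.4%, 11.3%, 8.17% and 8.60%. Among these 72 were miR-8110, whose share went from 4.62% at D0 to 1.36% at D4, and miR-5126, which stood at 2.06% at D0 and 0.591% at D12. Of the 10 brightest miRNAs on each array, 8 were members on D0, 7 on D4 and 5 on each later day.

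**Figure D1:**
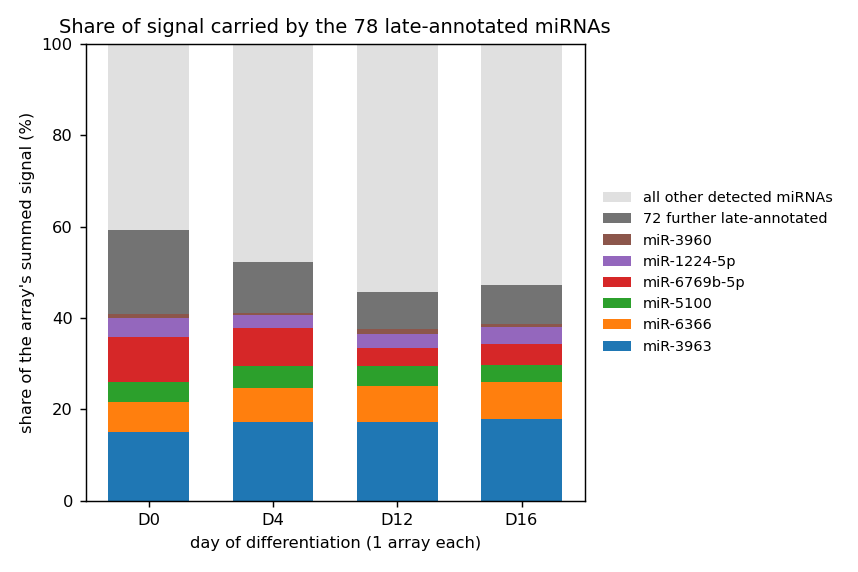
Share of the summed signal of each array (%, 1 array per day) carried by the 6 late-annotated miRNAs with the highest signal at D12, by the 72 further ones and by all other detected miRNAs. The late-annotated miRNAs together fell from 59.3% at D0 to 45.7% at D12, and the 72 further ones from 18.4% to 8.17%, while miR-3963 went from 15.1% to 17.4%.

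miR-3963 read 1918 ± 165, 6731 ± 548, 5373 ± 441 and 3927 ± 323 from D0 to D16, where ± is the technical error that the software gives within an array. miR-6366 followed almost the same course, with 838 ± 64.1, 2939 ± 222, 2395 ± 182 and 1752 ± 133. Their D4/D0 ratios were 3.51 for both, and their D12/D0 ratios 2.80 ± 0.33 and 2.86 ± 0.31. Both ratios were above 1 when scaled by spike-in, by share and by the 90th percentile, stood at 1.00 at D4 and D12 under quantiles and fell below 1 under the 75th percentile, so the direction depends on the scaling.

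miR-5100 had signals of 559 ± 51.9, 1877 ± 171, 1392 ± 127 and 830 ± 75.4 from D0 to D16, and D12/D0 was 2.49 ± 0.33. A stretch of 9 bases is shared between miR-5100 and miR-3968, which read 19.1, 79.7, 54.4 and 38.7. An 8-base stretch is common to miR-3963 and miR-3968.

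miR-1224-5p, whose precursor is a mirtron, a short intron that is spliced out and then processed by Dicer, read 538 ± 41.9, 1085 ± 84.4, 965 ± 81.5 and 824 ± 68.9. Its opposite arm miR-1224-3p was not detected at D0 and read 9.01, 6.35 and 5.82 on the later days. The 2 probes of miR-1224-5p differed by the most of any member, with D12/D0 of 0.962 by one and 2.19 by the other, so its ratio of 1.79 is an average of unlike readings. miR-8117 was the only other member whose probes differed by over 1.5 times, with 1.94 and 3.45. Among the 54 members with 2 or more probes detected on all 4 arrays, the median spread of D12/D0 between probes was 1.09 times.

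miR-6769b-5p read 1247 ± 90.1 on D0 and 3252 ± 231 on D4, and later stood at 1187 ± 84.1 and 986 ± 70.0. It was the member with the second highest signal at D0 and D4, and its share of the array went from 9.81% at D0 and 8.31% at D4 to 3.83% at D12. miR-5126 went the same way, from 262 ± 18.9 and 510 ± 36.1 to 183 ± 13.1 and 140 ± 10.0.

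**Figure D2:**
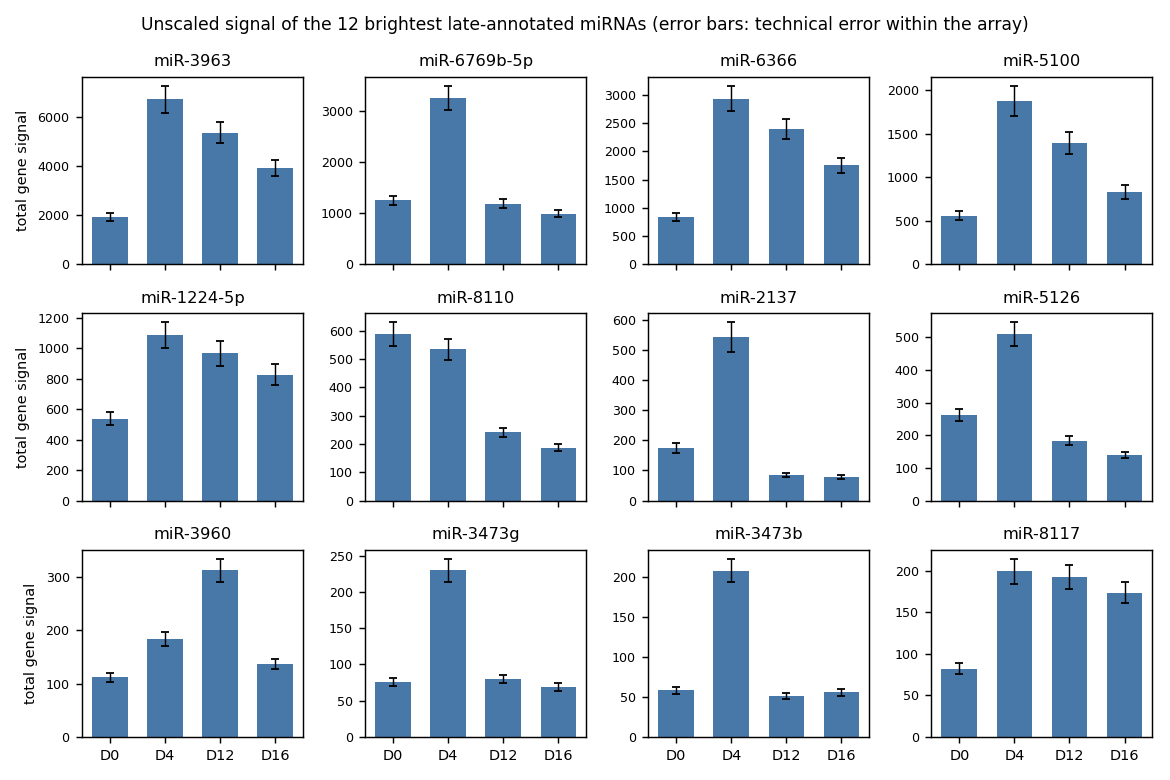
Unscaled total gene signal by day of the 12 late-annotated miRNAs with the highest signal on any array, each panel on its own axis from 0, with bars for the signal and error bars for the technical error within the array (1 array per day). miR-3963, miR-6366 and miR-5100 stayed above their D0 signal at D12, miR-6769b-5p returned to about its D0 signal, and miR-8110 and miR-2137 fell below it.

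From D0 to D4 the late-annotated miRNAs rose in unscaled signal, but by less than the miRNAs detected every day as a whole. Their median D4/D0 was 2.14 against 2.59 for all 283. Among the 205 that are not members, it was 2.22 for the 83 named miR-6880 to miR-7120 and 4.72 for the other 122. D4/D0 was above 2 for 59.0% of those 83, close to the members, and for 77.0% of those 122. The ratio was above 2 for 43 of the 78 (55.1%), where 65.7% of the 283 passed, and below 0.5 for 0 of the 78, where 0% did. The unscaled signal peaked on D4 for 61 members (78.2%; 74.2% of the 283), on D12 for 13, on D0 for 4 and on D16 for 0. By share of the array 55 of the 78 were highest on D0 (70.5%; 54.1% of the 283), 10 on D4, 5 on D12 and 8 on D16.

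The members that were lower at D4 than at D0 in unscaled signal were miR-8110, miR-5107-5p, miR-3470a, miR-1906 and miR-3100-3p, 6.41% of the 78 where 4.24% of the 283 were. They were also lower under all 5 scalings, but 4 of these divide D4/D0 by a factor above 1, so there a ratio below 1 stays below 1 by construction. The signals of miR-5107-5p and miR-3100-3p came from 2 probes on D0 but 1 on D4, which by itself lowers the ratio. miR-8110 read 587 ± 42.4 at D0 and 534 ± 37.8 at D4, a ratio of 0.91 ± 0.09. miR-3470a had 23.5, 15.9, 20.1 and 15.2 from D0 to D16, and miR-1906 had 13.8, 10.7, 10.4 and 6.06. These are small unscaled falls, from a ratio of 0.679 for miR-3470a to the 0.909 of miR-8110, on a day when the median of all 283 was 2.59 times D0.

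miR-5624-5p, miR-5127, miR-7681-5p and miR-7668-5p had the highest D4/D0, and with miR-5103 they were higher at D4 than at D0 unscaled and under all 5 scalings, 6.41% of the 78 where 27.6% of the 283 were. The ratio of miR-5103 was 1.00 under the 75th percentile. miR-5624-5p read 1.36, 10.9, 10.5 and 7.05 from D0 to D16. miR-5127 read 4.29, 26.1, 19.5 and 13.7. The 4 with the highest D4/D0 were dim at D0, where 1 probe of each counted as detected. At D4 and D12 the sum ran over 2 probes for miR-5127, miR-7681-5p and miR-7668-5p and over 4 for miR-5624-5p, which by itself raises the ratio.

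At D12 the late-annotated miRNAs were spread on both sides of D0 in unscaled signal. Their median D12/D0 was 1.55, against 1.99 for all 283, and their ratios ran from 0.410 to 7.74. Among those that are not members, the median was 1.85 for the 83 named miR-6880 to miR-7120 and 3.36 for the other 122. The ratio was above 2 for 25 members (32.1%; 49.5% of the 283) and below 0.5 for 4 (5.13%; 3.18% of the 283). Below 1 lay 21 of the 78 (26.9%) and 43 of the 283 (15.2%). Those 21 were also below 1 under all 5 scalings, which for the 4 scalings with a common factor follows from that factor being above 1. Higher under all 5 were 5 members (6.41%; 26.1% of the 283), and the direction of the other 52 depended on the scaling. The uneven D0 array bears on this count, since 13 of the 21 were below 1 on the left part of the arrays and all 21 on the right part.

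The 4 members below 0.5 were miR-8110, miR-7686-5p, miR-1897-5p and miR-2137. miR-8110 read 241 ± 17.2 at D12 and 187 ± 13.3 at D16, and D12/D0 was 0.41 ± 0.04. By share of the array it stood higher at D16 than at D12, with 0.854% against 0.777%. miR-1897-5p had 39.5, 42.4, 17.2 and 13.8 from D0 to D16, with D12/D0 of 0.44 ± 0.06. In unscaled signal both were nearly level between D0 and D4 and lower afterwards. The count of 4 follows the uneven D0 array: on the left part of the arrays 0 members were below 0.5 and on the right part 7, with miR-8110 at 0.511 and 0.342.

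miR-2137 took another path, rising before it fell. It read 174 ± 15.8 and 542 ± 48.6 on the first 2 days, then 84.9 ± 7.56 and 79.3 ± 6.99. Its D4/D0 was 3.12 ± 0.40, its D12/D0 0.49 ± 0.06 and its D12/D4 0.16 ± 0.02. The rise to D4 depends on the scaling: D4/D0 was 1.66 by spike-in, 1.06 under the 90th percentile and under quantiles, 1.02 by share and 0.733 under the 75th percentile.

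For 13 members another number of probes was summed at D12 than at D0, and this touches both ends of the order. miR-7686-5p read 9.60, 17.7, 4.14 and 3.18, but over the probes detected on all 4 arrays its D12/D0 was 0.818 and not 0.431. miR-5107-5p went from 0.542 to 1.03 in the same way. At the other end, miR-5624-5p went from 7.74 to 1.93, miR-5127 from 4.54 to 3.18, miR-3060-3p from 4.37 to 2.51, miR-7668-5p from 3.90 to 2.10 and miR-7681-5p from 3.78 to 1.87. On that basis 19 members were below 1 at D12, and none was above the 75th percentile factor of 3.29, so no rise at D12 was left under the 75th percentile.

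Among the 65 members with the same number of probes on both days, the highest D12/D0 was the 2.86 of miR-6366. miR-3960, known with miR-2861 from work on osteoblast differentiation, came close to it with 2.79 ± 0.29, which the 75th percentile turned to 0.849. Its signals were 112 ± 8.17, 184 ± 13.1, 313 ± 22.2 and 136 ± 9.77, and it was the only one of the 12 brightest members whose unscaled signal was highest at D12. miR-2861 itself was detected at D0 and D4 alone, at 4.24 and 13.6.

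**Figure D3:**
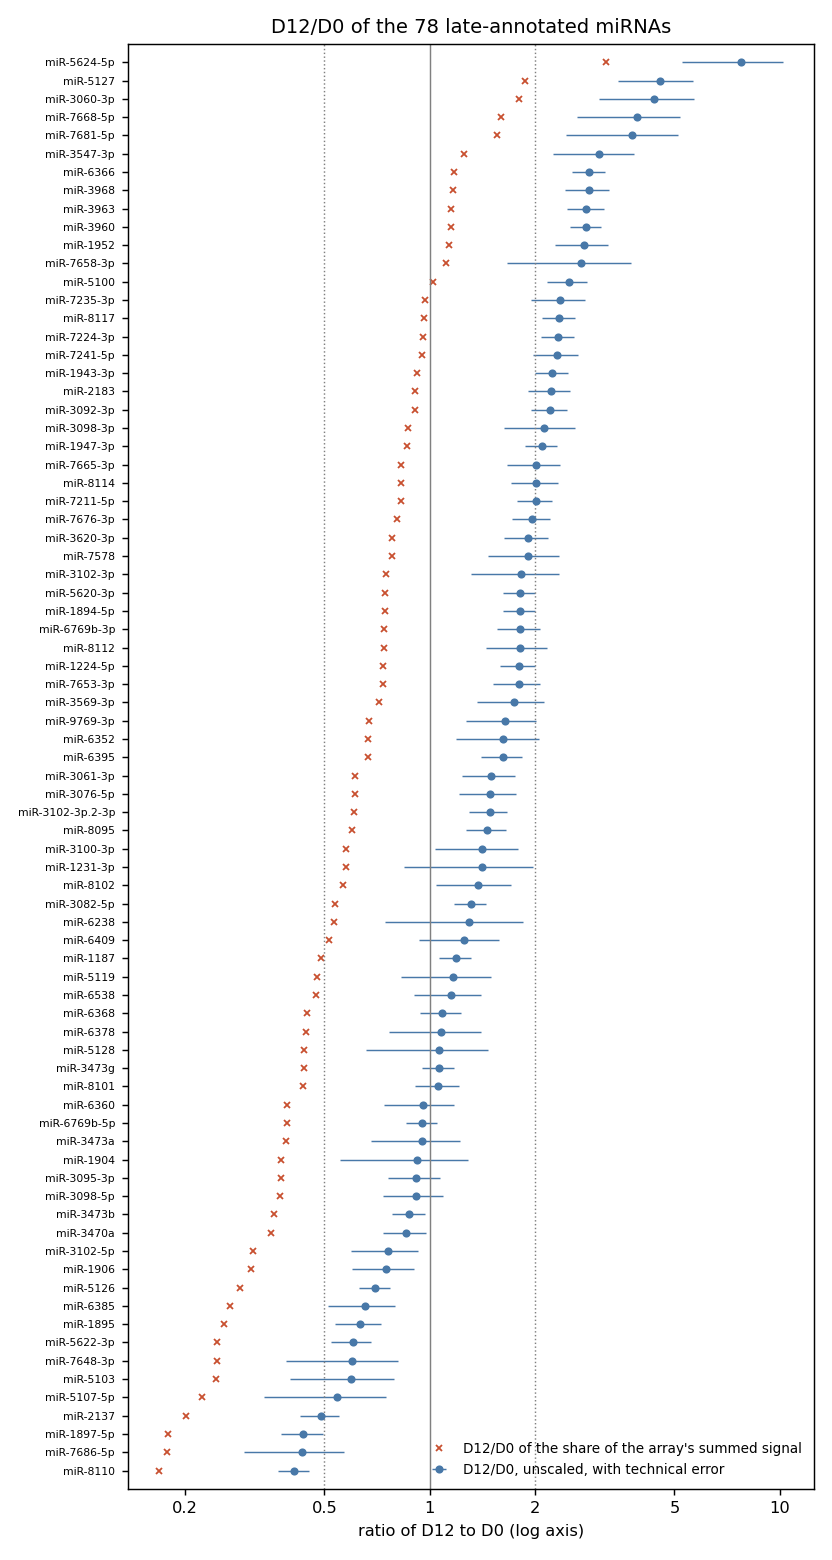
D12/D0 of each of the 78 late-annotated miRNAs on a log axis, unscaled (circles, with technical error of the ratio) and as the ratio of shares of the array (crosses); the solid line marks 1 and the dotted lines 0.5 and 2 (1 array per day). Unscaled ratios ran from 0.410 for miR-8110 to 7.74 for miR-5624-5p, and 21 lay below 1 on both scales.

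The step from D4 to D12 does not use the D0 array, and here many late-annotated miRNAs dropped. Their median D12/D4 was 0.80 against 0.84 for all 283. D12/D4 was below 0.5 for 22 members (28.2%), where 16.3% of the 283 passed, and above 2 for 0 members, where 1.06% did. Of the 22, 13 remained below 0.5 under the 75th percentile and 21 under the spike-ins. Lower at D12 than at D4 unscaled and under all 5 scalings were 32 of the 78 (41.0%) and 86 of the 283 (30.4%).

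The lowest D12/D4 was that of miR-5103, which read 6.83, 29.2, 4.07 and 3.22 from D0 to D16, a ratio of 0.14 ± 0.04. miR-7648-3p read 6.29, 17.8, 3.77 and 3.06. Both had their highest unscaled signal at D4, whereas by share of the array miR-7648-3p was highest at D0, with D4/D0 of 0.922. miR-5622-3p had a milder fall, with 34.8, 53.2, 21.0 and 14.9.

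In unscaled signal the miR-3473 names form a set that was high at D4 and back near D0 at D12. miR-3473b read 58.2, 208, 50.9 and 55.8, miR-3473g read 75.3, 230, 80.0 and 68.6, and miR-3473a read 5.84, 15.7, 5.54 and 4.92. Their D12/D4 ratios were 0.24, 0.35 and 0.35. By share of the array D12/D0 was 0.359, 0.436 and 0.389 in the same order, and under the 75th percentile D4/D0 was 0.840, 0.716 and 0.630, so neither the rise nor the return holds under every scaling.
miR-3473a: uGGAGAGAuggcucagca
miR-3473b: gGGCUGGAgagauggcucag
miR-3473g: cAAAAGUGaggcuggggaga
A stretch of 16 bases, UGGAGAGAUGGCUCAG, is common to miR-3473a and miR-3473b, so the signals of these 2 may not be separate measurements, while miR-3473g shares no stretch of 8 or more bases with either. miR-3473d, just outside the criterion, was not detected at D0 and read 10.3, 9.45 and 2.86 on the later days.

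Higher at D12 than at D4 in unscaled signal were 14 members (17.9%; 22.6% of the 283), with miR-3960, miR-3098-3p and miR-5620-3p among them. For miR-3098-3p, miR-3100-3p and miR-7658-3p the sum ran over 1 probe at D4 and 2 at D12, which by itself raises the ratio. Over the probes detected on all 4 arrays, D12/D4 of miR-3098-3p was 0.925 and thus below 1. All 14 were also above 1 under all 5 scalings, which for the 4 with a common factor follows from that factor being below 1. For 8 of the 14 the unscaled D12/D4 was no more than 1.08. miR-5620-3p read 53.8, 89.8, 97.4 and 53.8. miR-3061-3p, miR-3076-5p, miR-3620-3p, miR-8095 and miR-9769-3p had D12/D4 ratios from 1.00 to 1.22.

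From D12 to D16 nearly all members had a lower unscaled signal, as did the miRNAs detected every day as a whole. The median D16/D12 was 0.73, against 0.69 for all 283, and 75 of the 78 (96.2%) were below 1, where 95.8% of the 283 were. Lower under all 5 scalings as well were 28 members (35.9%; 42.4% of the 283), 3 were higher, and for 47 the direction depended on the scaling. The ratio was below 0.5 for 4 members (5.13%), where 6.01% of the 283 passed, and above 2 for 0, where 0% did. The 4 were miR-6409 at 0.36 ± 0.12, miR-7658-3p at 0.40 ± 0.15, miR-3960 at 0.44 ± 0.04 and miR-3098-3p at 0.45 ± 0.11. Of these only miR-3960 had the same number of probes on both days. miR-3102-5p at 1.28 ± 0.29, miR-6368 at 1.18 ± 0.15 and miR-3473b, with 50.9 and 55.8, were the 3 above 1, each within 2 technical errors of it.

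Of the 78 names, 15 were 5p arms, 25 were 3p arms and 38 carried no arm. The opposite arm was on the array for 39, and it was not detected on any day for 27 of them, on 1 to 3 days for 6 and on all 4 days for 6. The hairpins with more than 1 product detected every day were miR-3098, miR-3102 and miR-6769b. In each of the 3, the 5p arm stood lower at D12 relative to D0 than the 3p arms.

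miR-3098-5p read 12.3, 21.9, 11.2 and 10.7, and miR-3098-3p read 5.80, 9.20, 12.3 and 5.47. The D12/D0 ratios were 0.91 ± 0.18 and 2.11 ± 0.48, and over the probes detected on all 4 arrays 0.912 and 1.47. A second probe of the 3p arm counted as detected at D12 alone, which adds to its signal on that day.

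miR-6769b gave the clearest contrast in relation to the technical error. The 5p arm had a D12/D0 of 0.95 ± 0.10, and the 3p arm, with 15.0, 29.0, 27.1 and 18.8, a D12/D0 of 1.81 ± 0.25. The probes were the same on both days for each arm.

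For miR-3102, which gives 3 detected products, D12/D0 was 0.76 ± 0.17 for the 5p arm, 1.82 ± 0.51 for miR-3102-3p and 1.48 ± 0.18 for miR-3102-3p.2-3p. The signals were 10.5, 15.2, 7.97 and 10.2 for the 5p arm, 5.47, 9.70, 9.98 and 8.54 for miR-3102-3p and 22.2, 32.8, 32.9 and 20.7 for miR-3102-3p.2-3p. Over the probes detected on all 4 arrays the 5p arm stood at 1.09, which narrows the contrast. In the RefSeq table the 2 products on the 3p side adjoin each other on chromosome 7 within Arhgef17, with the 5p arm 38 bases from the nearer one. Within 1 hairpin a factor common to an array cancels in the ratio of arms.

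**Figure D4:**
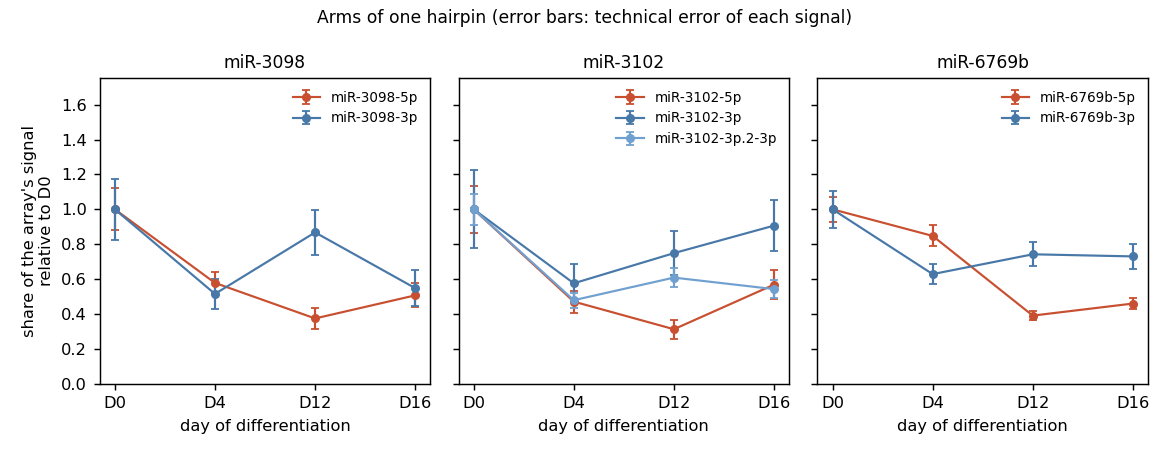
Share of the array's signal relative to D0, by day, for the detected products of the hairpins miR-3098, miR-3102 and miR-6769b, with error bars for the technical error of each signal (1 array per day). At D12 the 5p arm, with unscaled D12/D0 of 0.912, 0.761 and 0.952, lay below the 3p products of its hairpin.

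The late-annotated miRNAs differed in course by their base content. Of the 64 with a sequence, 28 held more G than C, and of these 15 were lower at D12 than at D0 and 16 were below 0.5 of D4. Of the 32 with more C than G, 1 was lower at D12 than at D0 and 1 below 0.5 of D4. The median D12/D0 was 0.95 in the first set and 2.01 in the second, and the median D12/D4 0.46 and 0.93. Among the other miRNAs detected every day, 15 of the 53 with more G were lower at D12 than at D0 and 18 below 0.5 of D4, and of the 103 with more C these were 1 and 5. Unscaled D12/D0 was above 2 for 2 members with more G, miR-6366 and miR-8117, and for 18 with more C. The other miRNAs pool names from miR-6880 to miR-7120 with other names, and this split was not counted for either kind of name alone. In the pool no such split was seen, with 27 of the 53 with more G and 57 of the 103 with more C above 2. Their median D12/D0 was 2.08 and 2.12, and their median D12/D4 0.79 and 0.91.

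Across the 64 members, Spearman's rho between the percentage of G and D12/D0 was -0.70, and between G and D12/D4 it was -0.58, while for D4/D0 it was -0.09. Such rank orders are free of any factor that a whole array shares. Over the probes detected on all 4 arrays rho was -0.65 for D12/D0, and over the left and the right part of the arrays alone -0.66 and -0.70 (63 members each). The points share the same arrays and probe chemistry and are no replicates, so rho is a description of these arrays.

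The other miRNAs detected every day showed the relation in part. Across the 160 of them with a sequence, rho was -0.16 for D12/D0 and -0.12 for D12/D4. These 160 pool names from miR-6880 to miR-7120 with other names, and rho was not computed for either alone. The median D12/D0 of all such miRNAs detected every day was 1.85 for the first and 3.36 for the second. At 40% G or more, a limit chosen after the values were seen, the 160 resembled the late-annotated ones. There 13 of 27 were lower at D12 than at D0 and 16 below 0.5 of D4, against 12 and 15 of 23 members. The median D12/D4 was 0.46 there and 0.45 in the members. Below 40% G, 3 of 133 were lower at D12 than at D0, against 5 of 41 members.

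The run GGGG, searched on the strand of the miRNA and with overlaps counted once, was in 15 of the 64 members (23.4%), in 8.13% of the other 160 and in 11.2% of the 1679 mature sequences of the table. Within the 160 it lay mostly in 5p arms named miR-6880 to miR-7120, such as miR-6944-5p and miR-7118-5p. Of the earlier names only miR-211-3p and miR-370-3p held it, and the share was not computed for either kind of name alone. Of the 15 members with the run, unscaled D12/D0 was below 1 for 5, namely miR-8110, whose longest run was 10 bases, miR-5126, miR-6769b-5p, miR-3102-5p and miR-7686-5p. It was above 1 for the other 10, miR-6366, miR-8117 and miR-1224-5p among them. The run CCCC was in 18.8% of the members, 17.5% of the other 160 and 7.33% of all mature sequences. miR-3963, the brightest, held 10.5% G and no such run.

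**Figure D5:**
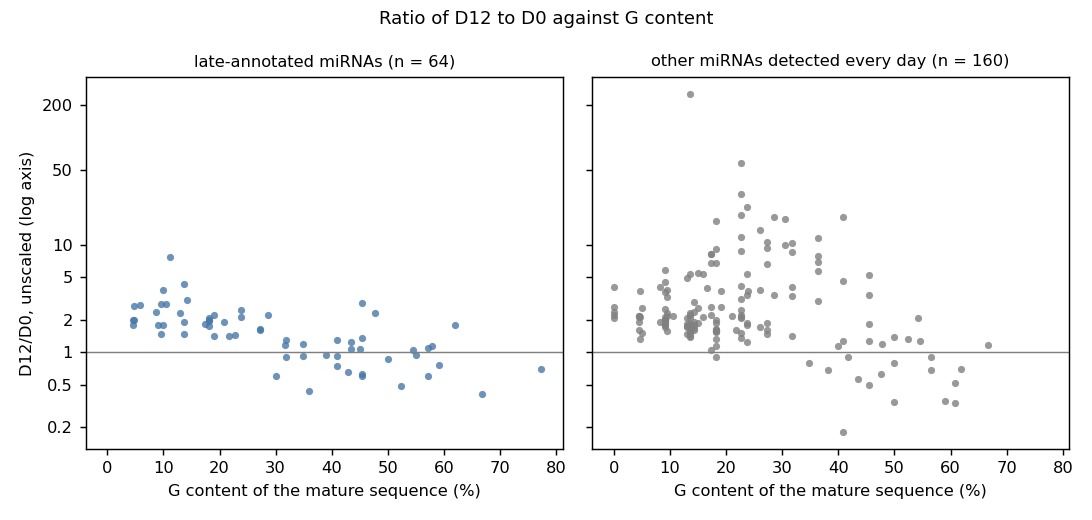
Unscaled D12/D0 (log axis) against the percentage of G in the mature sequence, with 1 point per miRNA, for 64 late-annotated miRNAs and for 160 other miRNAs detected every day (1 array per day; the line marks 1). The late-annotated miRNAs fall from left to right (rho = -0.70). Among the others, which pool names from miR-6880 to miR-7120 with other names, rho was -0.16. Of these others, 13 of the 27 at 40% G or more were below 1, another 5 above 2 and the highest of these at 18.3.

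The order of the late-annotated miRNAs among themselves was similar on all days. Pearson's r of log2 signals between arrays lay between 0.925 (D0 and D12) and 0.990 (D12 and D16) over the 78, and over the other 205 it was 0.683 for D0 and D12, 0.916 for D4 and D12 and 0.981 for D12 and D16. The points share probes and their brightness, which holds r high. Some members nevertheless changed place: in order of signal over all 1881 miRNAs, miR-2137 went from place 10 at D0 and 9 at D4 to 72 at D12, and miR-8110 from place 4 at D0 to 17 at D12.

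Many of the 78 were dim. The software marked 0.5 or more of the spots of 1 probe as well above background for 59, 69, 59 and 58 members from D0 to D16, and on all 4 arrays for 50. The technical error of a member's signal had a median between 9.70% at D4 and 11.7% at D0, and reached 32.6%. Only 17 of the 43 members with D4/D0 above 2 and 6 of the 25 with D12/D0 above 2 passed that threshold by more than 2 technical errors. Of the 22 with D12/D4 below 0.5, 13 did, and of the 4 with D12/D0 below 0.5, 1 did.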

How the data were processed

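RNA of the exosome fraction was labelled with Cy3 and read on 4 arrays of release 19.0 with 30 spots per miRNA, over 1 to 4 probes. The authors deposited the intensity output of Feature Extraction 11.0.1.1, with local background subtracted and no scaling between arrays. The total gene signal was checked to be the sum over detected probes, and is 0.1 where a miRNA is not detected. Shares, ratios and counts were computed in Python 3.11.15 (pandas 2.3.3, numpy 2.4.6, scipy 1.17.1), with limma 3.58.1 in R 4.3.3 for normexp on median spot signals. The threshold was a ratio above 2 or below 0.5. No test was made. Steps were tested on simulated data. Members and lists were chosen with earlier results of these data known. Named miRNAs were the 10 brightest of any array, the 8 highest and 8 lowest D12/D0, the 4 highest and lowest D4/D0 and D16/D12, those highest on another day than D4, and those sharing a name stem. miR-3473d, miR-2861, miR-1187 and the miRNAs of the closing section were named after their values were seen. Alternatives were 5 scalings, other backgrounds, probes, spots, filters and thresholds. Sequences and gene spans are RefSeq's for GRCm38.p6, and a span was matched on either strand.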

Additional observations from a re-analysis of the deposited data

How the results depend on the processing

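Counts past a fixed fold moved with the scaling. In the counts here high means a ratio above the fold threshold of 2 and low a ratio below 0.5, over the 78. Not every count is given, and those left out can also have moved. Single ratios are listed only where they were above 2 unscaled and fell below 1. The unscaled counts were 43 and 0 for D4/D0, 25 and 4 for D12/D0, 0 and 22 for D12/D4 and 0 and 4 for D16/D12. Under 75th percentile scaling, D4/D0 was high for 0 and low for 39, D12/D0 was high for 1 and low for 42, D12/D4 was high for 3 and low for 13 and D16/D12 was low for 0, and the highest day was D0 for 72, D4 for 2, D12 for 2 and D16 for 2. D4/D0 of miR-1224-5p turned to 0.473, miR-2137 to 0.733, miR-3060-3p to 0.98, miR-3473a to 0.63, miR-3473b to 0.84, miR-3473g to 0.716, miR-3547-3p to 0.901, miR-3963 to 0.824, miR-3968 to 0.978, miR-5100 to 0.789, miR-6366 to 0.823, miR-6368 to 0.544, miR-6769b-5p to 0.612, miR-7648-3p to 0.666, miR-8102 to 0.782 and miR-8117 to 0.57. D12/D0 of miR-3098-3p turned to 0.642, miR-3547-3p to 0.924, miR-3960 to 0.849, miR-3963 to 0.852, miR-3968 to 0.864, miR-5100 to 0.757, miR-6366 to 0.869, miR-7658-3p to 0.823 and miR-8117 to 0.712. Under 90th percentile scaling, D4/D0 was high for 2 and low for 14, D12/D0 was high for 1 and low for 27, D12/D4 was high for 3 and low for 13 and D16/D12 was low for 0, and the highest day was D0 for 52, D4 for 11, D12 for 6 and D16 for 9. D4/D0 of miR-1224-5p turned to 0.682, miR-3473a to 0.908, miR-6368 to 0.784, miR-6769b-5p to 0.882, miR-7648-3p to 0.959 and miR-8117 to 0.821. D12/D0 of miR-3098-3p turned to 0.911. Under quantile normalization, D4/D0 was high for 0 and low for 19, D12/D0 was high for 0 and low for 31, D12/D4 was high for 4 and D16/D12 was high for 2 and low for 0, and the highest day was D0 for 53, D4 for 13, D12 for 6 and D16 for 6. D4/D0 of miR-3473a turned to 0.928, miR-6368 to 0.721, miR-7648-3p to 0.985 and miR-8117 to 0.805. D12/D0 of miR-3098-3p turned to 0.982, miR-7658-3p to 0.96 and miR-8117 to 0.98. By share of the array, D4/D0 was high for 1 and low for 18, D12/D0 was high for 1 and low for 29, D12/D4 was high for 3 and low for 14 and D16/D12 was low for 0, and the highest day was D0 for 55, D4 for 10, D12 for 5 and D16 for 8. D4/D0 of miR-1224-5p turned to 0.655, miR-3473a to 0.873, miR-3473g to 0.991, miR-6368 to 0.753, miR-6769b-5p to 0.847, miR-7648-3p to 0.922 and miR-8117 to 0.789. D12/D0 of miR-3098-3p turned to 0.868 and miR-8117 to 0.962. Under spike-in scaling, D4/D0 was high for 8 and low for 5, and D12/D0 high for 5 and low for 17. D16/D12 was low for 1, and the highest day was D0 for 27, D4 for 43, D12 for 5 and D16 for 3. With normexp background, D4/D0 was high for 7, D12/D0 was high for 3 and low for 1, D12/D4 was low for 6 and D16/D12 was low for 0, and the highest day was D0 for 8 and D16 for 2. There the median over that of all was 0.934 for D4/D0 and 0.927 for D12/D0. D12/D0 of miR-7658-3p turned to 0.987. With the effective spot size divided out, D4/D0 was high for 26, D12/D0 was high for 12 and low for 9 and D16/D12 was low for 1, and the highest day was D16 for 3. On the left part of each array, D4/D0 was high for 57, D12/D0 was high for 36 and low for 0, and the highest day was D0 for 2. On the right part, D4/D0 was high for 31 and D12/D0 was high for 14 and low for 7. Over probes detected on all 4 arrays, D16/D12 was low for 1. At a fold threshold of 1.5, D4/D0 was high for 62 and D12/D0 was high for 39 and low for 10. There D12/D4 was high for 3 and D16/D12 was low for 24. At a fold threshold of 3, D4/D0 was high for 20, D12/D0 was high for 6 and low for 0, D12/D4 was low for 9 and D16/D12 was low for 0. Beyond 2 technical errors, D4/D0 was high for 17, D12/D0 was high for 6 and low for 1, D12/D4 was low for 13 and D16/D12 was low for 0. With the brightness filter, D4/D0 was high for 25, D12/D0 was high for 16, D12/D4 was low for 13 and D16/D12 was low for 1. With at least 0.5 of the spots well above background, D4/D0 was high for 26, D12/D4 was low for 12 and D16/D12 was low for 2.

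The share of the members over the miRNAs detected on all 4 arrays was 54.5%, 48.0% and 49.5% from D4 to D16. Without the 10 brightest miRNAs it was 23.1%, 17.5%, 18.2% and 18.5% from D0 to D16, and without miR-3963 52.1%, 42.5%, 34.3% and 35.7%. The spot size, the left and right parts of the arrays and the share without miR-3963 were chosen after seeing the data. Normexp adds an offset of 50 that draws dim ratios toward 1. The other causes were not tested. No paired analysis was possible because each day had 1 array.

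With 1 pool per day, the error between cultures is unknown, and the technical error covers variation within an array alone. Of the 78 members 50 had a probe well above background on every array, and below that a change of probes can set the ratio. Array, day and hybridisation cannot be told apart.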

Other observations

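Late-annotated miRNAs that were detected on 2 or 3 days fell into different sets of days. miR-6481 was not detected at D0 and read 39.8, 16.9 and 8.13 at D4, D12 and D16, the highest signal of any of the 7 detected on 3 days. miR-7218-5p read 10.6, 30.6 and 8.15 at D0, D4 and D12. miR-3547-5p, the opposite arm of a member, was detected at D0 and D4 alone with 7.01 and 10.3, and so were miR-8105 with 6.21 and 9.67 and miR-3102-5p.2-5p with 10.7 and 25.9. miR-5116 was detected at D12 and D16 alone, with 5.92 and 6.12.

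The members with GU-repeat sequences, miR-1187 and miR-3082-5p, share a stretch of 10 bases with each other and of 11 and 12 bases with miR-574-5p. miR-3082-5p read 109, 164, 143 and 91.7 from D0 to D16, and miR-1187 read 74.2, 109, 88.1 and 60.7. Of 2016 pairs of members with a sequence, 34 shared a stretch of 8 bases or more.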
